A study of Mus musculus with 34 samples.

Results

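A small set of transcripts held about as much of the measured RNA of control mouse gastrocnemius, the large calf muscle, as all other transcripts together. The rows described here are those of the deposited expression table whose mean over the 8 control libraries was at least 1000 TPM (a transcript abundance scaled for transcript length and to the same total in every library). There were 81 such rows of 23737, or 0.341% of the table. They were chosen by their values in the control libraries, so what sets them apart there describes the choice and was not tested. The gene symbols beside the rows do not match the values. The check used 72 symbols of skeletal muscle, mitochondrially encoded, blood, fat, connective tissue, nerve, immune and translation genes. Of these, 59 occurred in the table, among them 0 of the 9 mitochondrially encoded and 1 of the 5 blood symbols. None of the 59 labelled a member, and the highest control mean among those 59 rows was 149.96 TPM. Rows are therefore called by their rank in control muscle (row 1 is the highest) and by their line in the table, counted below its header, and none is read as a gene. For the same reason the labelled tissue, other cell types and the deletion of Hdac4 could not be checked through marker genes.

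Skeletal muscle is known to devote much of its messenger RNA to a few very abundant transcripts, among them those of the contractile filaments and of energy metabolism. A muscle whose nerve is cut loses its activity and wastes. Class IIa histone deacetylases such as HDAC4 are nuclear repressors known to link nerve input to muscle transcription. TPM are shares of a fixed total, so a lower value of one abundant transcript raises the values of others without any change in their molecules. In bulk tissue, fewer cells of a type and less RNA per cell cannot be told apart.

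The study measured polyadenylated RNA in gastrocnemius muscle of female mice, 6 months old when the sciatic nerve of the left leg was cut, with dosing by mouth 2 times a day for 2 weeks from the day of surgery. WT_VEH_CON (8 libraries) and WT_VEH_DEN (7 libraries) are the control and the denervated legs of wild-type mice given vehicle, a methylcellulose and Tween 80 solution. WT_NVS_DEN (10 libraries) are denervated legs of wild-type mice given 10 mg/kg of NVS-HD1, a compound that inhibits class IIa histone deacetylases. iRKO_VEH_DEN (9 libraries) are denervated legs of vehicle-treated mice whose floxed exon 5 of HDAC4 is removed by Cre-ERT2, expressed from the ROSA26 locus in all tissues, after tamoxifen at 40 mg/kg on 7 days at 4 months of age, 6 weeks before surgery. The deletion is thus not limited to muscle, and the labels do not say whether wild-type mice also received tamoxifen. All control legs were contralateral legs of vehicle-treated wild-type mice, and they may come from the same mice as denervated legs. The labels do not state that the libraries of a group came from separate mice, so the p-values below reflect the spread among these libraries, which may be technical in part.

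Sequencing depth cannot be recovered from TPM, so no counting error stands beside the values. Each library had 11607 to 12933 rows at 1 TPM or more, and no 2 of the 34 libraries held identical values. A number in the sample titles, whose meaning the labels do not give, differed between groups: WT_VEH_CON libraries carried 20, 28 or 29, WT_VEH_DEN 28 or 29, WT_NVS_DEN 26 or 27 and in 1 case 28, and iRKO_VEH_DEN 25, 26 or 27. Several libraries stood apart in the measure described here. WT_VEH_CON replicate 3 and WT_VEH_DEN replicate 5 had the highest member share of their groups, and iRKO_VEH_DEN replicates 3, 7 and 8 lay above the other 6 libraries of theirs. Several results that rest on them are given with and without them.

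The 81 members held 48.5% to 56.8% of all TPM in the control libraries, with a median of 50.3% and a mean of 50.8% ± 2.59 (SD, n = 8). In WT_VEH_DEN they held 35.7%, 36.9% and 44.3% (lowest, median, highest), a mean of 38.4% ± 2.89 (SD, n = 7). No denervated vehicle library reached the lowest control library, and the means differed by -12.4 percentage points (SE 1.43). The difference was -12.5 points (SE 0.872) among the libraries of title number 29, with 3 denervated against 5 control libraries. Without WT_VEH_CON replicate 3 (56.8%, the others 48.5% to 51.6%) it was -11.6 points, and without WT_VEH_DEN replicate 5 (44.3%, the others 35.7% to 39.1%) it was -13.4 points.

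Both groups with a class IIa deacetylase inhibited or deleted lay between these means. WT_NVS_DEN libraries held 42.2%, 45.5% and 47.9% (lowest, median, highest; mean 45.3% ± 1.73, SD, n = 10), all below every control library, while their lower end overlapped WT_VEH_DEN. In iRKO_VEH_DEN the members held 42.6%, 45.9% and 52.7% (mean 47.1% ± 4.07, SD, n = 9), overlapping both the control and the denervated vehicle libraries. The WT_NVS_DEN mean exceeded that of WT_VEH_DEN by 6.94 points (SE 1.22) and the iRKO_VEH_DEN mean exceeded it by 8.74 points (SE 1.74). These differences share the same WT_VEH_DEN libraries, and because the share sums over members chosen with results known they carry no p. In iRKO_VEH_DEN, replicates 3, 7 and 8 held 52.0%, 52.4% and 52.7%, and the other 6 held 42.6% to 45.9%. Without those 3 libraries the iRKO_VEH_DEN excess was 6.12 points, and the other 6 stayed below every control library. The overlap of both groups with WT_VEH_DEN rested on WT_VEH_DEN replicate 5 (44.3%, the others 35.7% to 39.1%). Without that library the excess over WT_VEH_DEN was 7.93 points for WT_NVS_DEN and 9.73 points for iRKO_VEH_DEN. The 1 WT_NVS_DEN library of title number 28, replicate 4, held 47.5%, against 35.7% to 44.3% in the 4 WT_VEH_DEN libraries of that number and 50.4% in the 1 control library of that number.

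**Figure D1:**
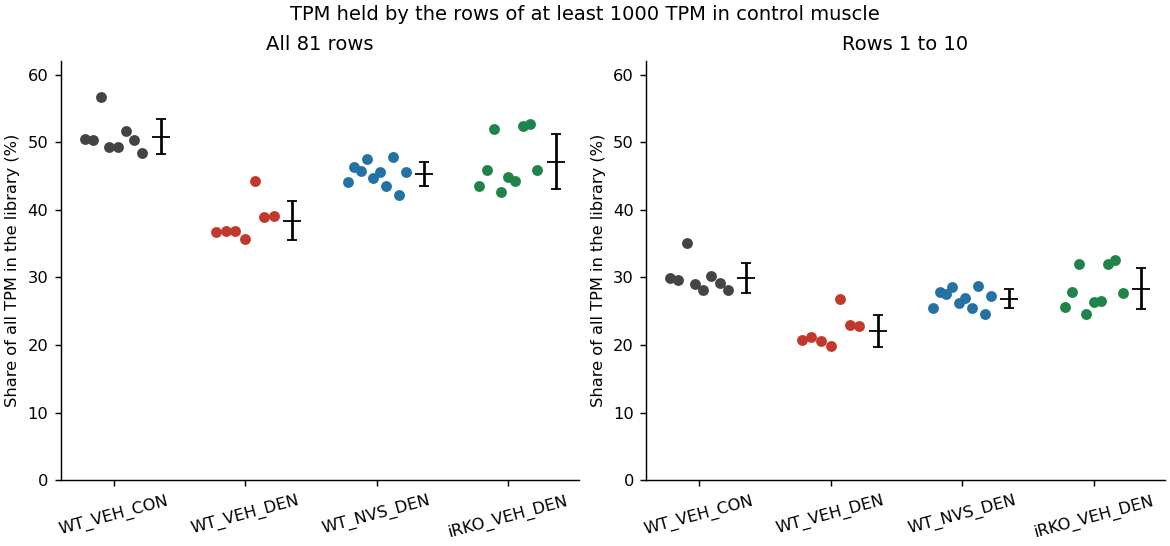
Share of all TPM (percent, linear axis from 0) held by the 81 rows, left, and by rows 1 to 10, right, with 1 point per library, the mean and the SD for each of the 4 groups. All WT_VEH_DEN points lie below all control points, from 35.7% to 44.3% against 48.5% to 56.8% for the 81 rows, and 3 iRKO_VEH_DEN points stand above 51%.

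The 10 highest rows held more than the other 71 members together. Rows 1 to 10 alone held 29.9% ± 2.24 of control TPM (SD, n = 8), 22.1% ± 2.37 in WT_VEH_DEN (n = 7), 26.9% ± 1.38 in WT_NVS_DEN (n = 10) and 28.4% ± 3.02 in iRKO_VEH_DEN (n = 9). The other 71 members held 20.9%, 16.2%, 18.5% and 18.7% in the same order. Of the -12.4 points between WT_VEH_DEN and control, rows 1 to 10 accounted for -7.79 and the other members for -4.65. Split by direction, 61 members below their control mean together gave -14.9 points and 20 members above it gave 2.44 points. The remaining TPM lay in less abundant rows: the 1110 rows with a control mean of 100 to 1000 TPM held 28.2% in control and 34.1% in WT_VEH_DEN, and the 5763 rows of 10 to 100 TPM held 18.4% and 24.1%. 50% of a library's TPM was reached with a median of 78 rows in control, 177 in WT_VEH_DEN, 121 in WT_NVS_DEN and 113 in iRKO_VEH_DEN.

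**Figure D2:**
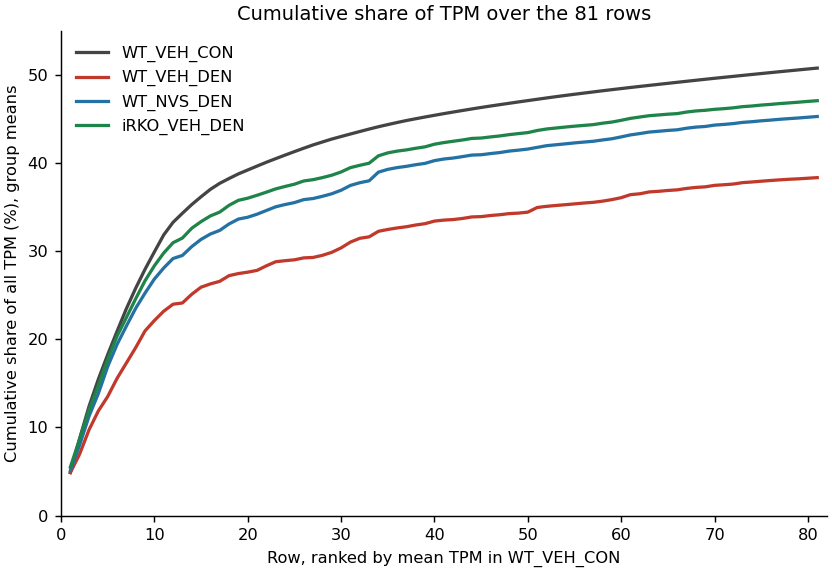
Cumulative share of all TPM (percent, group means) over the 81 rows, ordered by mean TPM in WT_VEH_CON on the horizontal axis, with 1 line per group. At row 1 the lines start at 4.89% in control, 4.87% in WT_VEH_DEN, 5.10% in WT_NVS_DEN and 5.50% in iRKO_VEH_DEN. They end at 50.8%, 38.4%, 45.3% and 47.1% in the same order.

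Row 1 (line 18227) was the most abundant row of every group, with 4.89% of control TPM, 4.87% in WT_VEH_DEN, 5.10% in WT_NVS_DEN and 5.50% in iRKO_VEH_DEN. Its control values were 43802, 48233 and 55601 TPM (lowest, median, highest), and its WT_VEH_DEN values were 40621, 47684 and 58468 TPM. The 2 groups overlapped, with means of 48937 and 48677 TPM and a log2 fold of -0.01 that was -0.34 with each library rescaled to the rows that are no members. Its mean was 51038 TPM in WT_NVS_DEN and 55026 TPM in iRKO_VEH_DEN, and neither passed the test against WT_VEH_DEN (limma adjusted p = 0.536 and 0.0873). The fold against WT_VEH_DEN, on the log2(TPM + 1) scale used for all folds here, was 0.07 for the inhibitor (95% interval -0.10 to 0.23) and 0.18 for the deletion (0.01 to 0.35), and the latter passed (0.22) without WT_VEH_DEN replicate 5.

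Row 2 (line 15840) ranked 2 in control and 4 in WT_VEH_DEN. Its control values were 35889, 37828 and 46692 TPM and its WT_VEH_DEN values 18139, 20043 and 27552 TPM, with no overlap and a mean at 54.9% of control. WT_NVS_DEN had 26758, 29512 and 32173 TPM and iRKO_VEH_DEN 25740, 30560 and 38070 TPM. Both groups lay mostly above the denervated vehicle libraries, by 0.47 (SE 0.0816, limma adjusted p = 1.83e-05) and 0.60 (SE 0.0835, limma adjusted p = 4.65e-07) on the log2 scale. All WT_NVS_DEN libraries stayed below the control libraries. So did the iRKO_VEH_DEN libraries other than replicates 7 (36089 TPM) and 8 (38070 TPM), which are among those that stood apart in member share.

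Row 5 (line 2635) had the largest intervention differences among rows 1 to 10. It measured 25521, 27415 and 33151 TPM in control libraries and 9382, 16090 and 24207 TPM in WT_VEH_DEN. WT_NVS_DEN libraries had 26672, 30781 and 34659 TPM, all above every WT_VEH_DEN library, and iRKO_VEH_DEN libraries had 21333, 28976 and 36464 TPM. The means of both groups, 30587 and 29275 TPM, lay within the control range. Against WT_VEH_DEN the row was 0.95 higher with NVS-HD1 (SE 0.121, limma adjusted p = 1.05e-07) and 0.87 higher with the deletion (SE 0.124, limma adjusted p = 5.46e-07). Its coefficient of variation (SD over mean) was 28.5% in WT_VEH_DEN and 8.69% in control.

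Row 10 (line 18866) held 18407, 19391 and 21664 TPM in control and 10369, 11433 and 13890 TPM in WT_VEH_DEN, again without overlap. With NVS-HD1 it held 12934, 16511 and 17951 TPM, and with the deletion 14843, 16189 and 20568 TPM. Each iRKO_VEH_DEN library was above each WT_VEH_DEN library. The folds were 0.44 (SE 0.0765, limma adjusted p = 1.95e-05) and 0.52 (SE 0.0782, limma adjusted p = 1.47e-06).

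Rows 3, 4, 6, 7 and 8 (lines 17180, 10778, 16942, 16923 and 17177) made up a middle band, with control means from 23311 to 36216 TPM and WT_VEH_DEN means at 67.9% to 77.9% of these. Rows 3, 4 and 7 did not overlap between the groups, whereas rows 6 and 8 did. Row 3 went from 33487, 35600 and 43956 TPM to 23485, 26696 and 32424 TPM, and row 4 from 27311, 30450 and 35930 TPM to 19637, 20662 and 25069 TPM. All 5 rows were higher in both intervention groups than in WT_VEH_DEN, by 0.22 to 0.28 with NVS-HD1 and by 0.27 to 0.37 with the deletion, at limma adjusted p values no larger than 0.0167. Row 9 (line 16965) differed from this band. Its libraries overlapped between control (18101, 21707 and 25341 TPM) and WT_VEH_DEN (17052, 19144 and 20524 TPM), and its folds of -0.14 with NVS-HD1 and 0.10 with the deletion did not pass the test (limma adjusted p = 0.207 and 0.423). Rows 1 to 10 were also the 10 highest rows in each denervated group, in a changed order.

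Across all 81 members, 40 (49.4%) had every WT_VEH_DEN library below every control library, 11 (13.6%) had every one above, and 30 overlapped. Over the 13108 rows tested the same counts were 7.38% below and 24.3% above. Because the control values chose the members, these shares are printed as description only, and nothing is read from their difference. Members 2-fold or more below control numbered 13 and members 2-fold or more above numbered 4 (3.61% and 8.41% of rows tested). The members' folds ran from -2.94 to 1.81 with a median of -0.46, where the median of all rows tested was 0.17. That median of all rows depends on the scaling. It was 0.01 with median-of-ratios scaling and -0.10 with each library rescaled to the rows that are no members. The members' own median was -0.66 and -0.79 under those scalings, with 66 and 68 of 81 below 0 in place of 61. With quantile normalization it was -0.55, with 55 members below 0 and 25 above, where the median of all rows was 0.003. The count of members above control without overlap was 6 with median-of-ratios scaling, 6 with rescaling and 10 with quantile normalization. Without WT_VEH_CON replicate 3 the counts were 45 below and 11 above, and without WT_VEH_DEN replicate 5 they were 44 and 11. Leaving out a library can only keep or raise such a count, in any set of rows. The shares over all rows tested without overlap are not given for these scalings and omissions, so nothing is read from the changes in count.

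**Figure D3:**
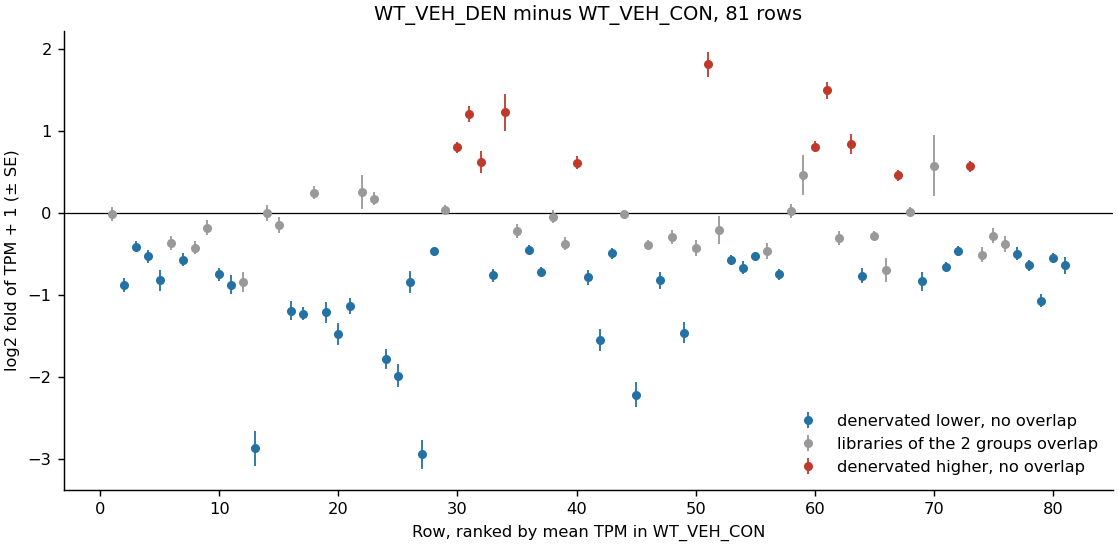
Log2 fold of TPM + 1 of WT_VEH_DEN (n = 7) to WT_VEH_CON (n = 8) for each of the 81 rows in order of control abundance, with SE bars and colour by overlap of the libraries. The folds run from -2.94 (row 27) to 1.81 (row 51), with 40 rows below control and 11 above without overlap.

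Row 13 (line 2748) was among the members furthest below control. It held 9213, 10110 and 12241 TPM in control libraries and 1114, 1428 and 1834 TPM in WT_VEH_DEN, a mean at 13.8% of control, and it went from rank 13 to rank 63 of all rows. WT_NVS_DEN libraries held 2411, 3623 and 4147 TPM and iRKO_VEH_DEN libraries 2357, 3707 and 10093 TPM. All libraries of both groups exceeded all WT_VEH_DEN libraries, by 1.30 (SE 0.199, limma adjusted p = 2.7e-06) and 1.73 (SE 0.204, limma adjusted p = 1.84e-08). The iRKO_VEH_DEN libraries spread widely (coefficient of variation 55.5%), and without replicates 3, 7 and 8 the fold of the deletion was 1.26.

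Row 27 (line 15330) had the lowest fold of all members, -2.94 (SE 0.178). Its values were 3381, 3642 and 4400 TPM in control and 367, 511 and 694 TPM in WT_VEH_DEN. With NVS-HD1 they were 930, 1241 and 1393 TPM and with the deletion 818, 1147 and 2609 TPM. The groups did not overlap with WT_VEH_DEN in either case, and both folds passed the test (1.33, SE 0.169, limma adjusted p = 1.05e-07, and 1.5, SE 0.173, limma adjusted p = 1.35e-08). All libraries of both intervention groups were still below all control libraries.

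Rows 24 and 25 (lines 5170 and 16363) had similar profiles. Row 24 held 3795, 4017 and 4340 TPM in control and 959, 1141 and 1619 TPM in WT_VEH_DEN. It was higher by 1.13 with NVS-HD1 (limma adjusted p = 1.34e-09) and by 1.18 with the deletion (limma adjusted p = 6.84e-10), to means of 2576 and 2743 TPM. Neither group reached the control range at any library. Row 25 held 3713, 3883 and 4300 TPM in control and 898, 984 and 1175 TPM in WT_VEH_DEN. The intervention groups, with means of 2183 and 2553 TPM, exceeded WT_VEH_DEN by 1.13 and 1.28 (limma adjusted p = 3.76e-08 and 3.42e-09). In this row iRKO_VEH_DEN replicate 7 lay within the control range, at 3869 TPM, and no WT_NVS_DEN library did.

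Row 19 (line 16256) was near the control level in both intervention groups. Control libraries had 4646, 5148 and 6602 TPM, and WT_VEH_DEN libraries 1663, 2087 and 3524 TPM. WT_NVS_DEN libraries had 4595, 5512 and 6275 TPM and iRKO_VEH_DEN libraries 4020, 5503 and 6579 TPM. Every library of both groups exceeded every WT_VEH_DEN library, with folds of 1.28 (SE 0.122, limma adjusted p = 3.18e-10) and 1.31 (SE 0.124, limma adjusted p = 2.69e-10). The means of 5525 and 5644 TPM lay beside a control mean of 5240 TPM.

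Row 45 (line 4916) kept its low level in all 3 denervated groups. It held 1347, 1671 and 2049 TPM in control and 323, 351 and 428 TPM in WT_VEH_DEN. The inhibitor group held 258, 354 and 543 TPM and the deletion group 312, 409 and 754 TPM, all overlapping WT_VEH_DEN and none reaching a control library. Neither difference passed the test: the ratio to WT_VEH_DEN was 0.997 with NVS-HD1 (95% interval of the log2 fold -0.30 to 0.29, limma adjusted p = 0.985) and 1.16 with the deletion (-0.09 to 0.52, limma adjusted p = 0.271). With means of 365, 368 and 443 TPM it was the lowest member of each denervated group.

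Among the members above control under denervation, row 51 (line 18656) had the highest fold, 1.81 (SE 0.149). Control libraries held 1162, 1538 and 1697 TPM and WT_VEH_DEN libraries 4156, 5387 and 6037 TPM. It was lower in WT_NVS_DEN, with 1149, 1838 and 2526 TPM, and in iRKO_VEH_DEN, with 1647, 2226 and 4053 TPM, and neither group overlapped WT_VEH_DEN. The folds were -1.48 (SE 0.142, limma adjusted p = 3.81e-10) and -1.19 (SE 0.145, limma adjusted p = 3.72e-08). It was the 1 member called 2-fold or more lower in either intervention.

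Row 61 (line 7943) held 1072, 1252 and 1330 TPM in control and 3024, 3340 and 3872 TPM in WT_VEH_DEN. It was lower with NVS-HD1 (1638, 2208 and 2852 TPM, fold -0.63, limma adjusted p = 2.31e-06) and with the deletion (1571, 2205 and 2679 TPM, fold -0.67, limma adjusted p = 9.27e-07). The libraries of both intervention groups lay between the control and the denervated vehicle libraries, touching neither. Rows 30 and 32 (lines 8977 and 12193) were also lower in both, row 30 at -0.33 and -0.46 (limma adjusted p = 7.49e-05 and 5.72e-07) and row 32 at -0.52 and -0.75 (limma adjusted p = 0.00164 and 1.86e-05). Row 30 had control, WT_VEH_DEN, WT_NVS_DEN and iRKO_VEH_DEN means of 2899, 5051, 4029 and 3689 TPM, and row 32 had means of 2809, 4304, 3075 and 2608 TPM. The means of row 32 in the intervention groups lay within its control range of 2316 to 3412 TPM, and those of row 30 did not.

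Row 31 (line 399) held 2441, 2778 and 3629 TPM in control and 5910, 6484 and 7043 TPM in WT_VEH_DEN. It was lower, at -0.28 with NVS-HD1 (limma adjusted p = 0.0161) and at -0.42 with the deletion (limma adjusted p = 0.00054), and both directions turned when the title number was added to the model (0.09 and 0.07). Row 34 (line 11013) behaved differently from rows 51 and 61. Control libraries held 2034, 2596 and 3816 TPM, WT_VEH_DEN 4347, 6407 and 8016 TPM, WT_NVS_DEN 6701, 9258 and 17429 TPM and iRKO_VEH_DEN 4034, 8175 and 14174 TPM. All denervated libraries were above all control libraries, and the inhibitor group was higher still than WT_VEH_DEN by 0.64 (SE 0.213, limma adjusted p = 0.0169). The deletion's fold of 0.34 (95% interval -0.10 to 0.78) did not pass the test.

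**Figure D4:**
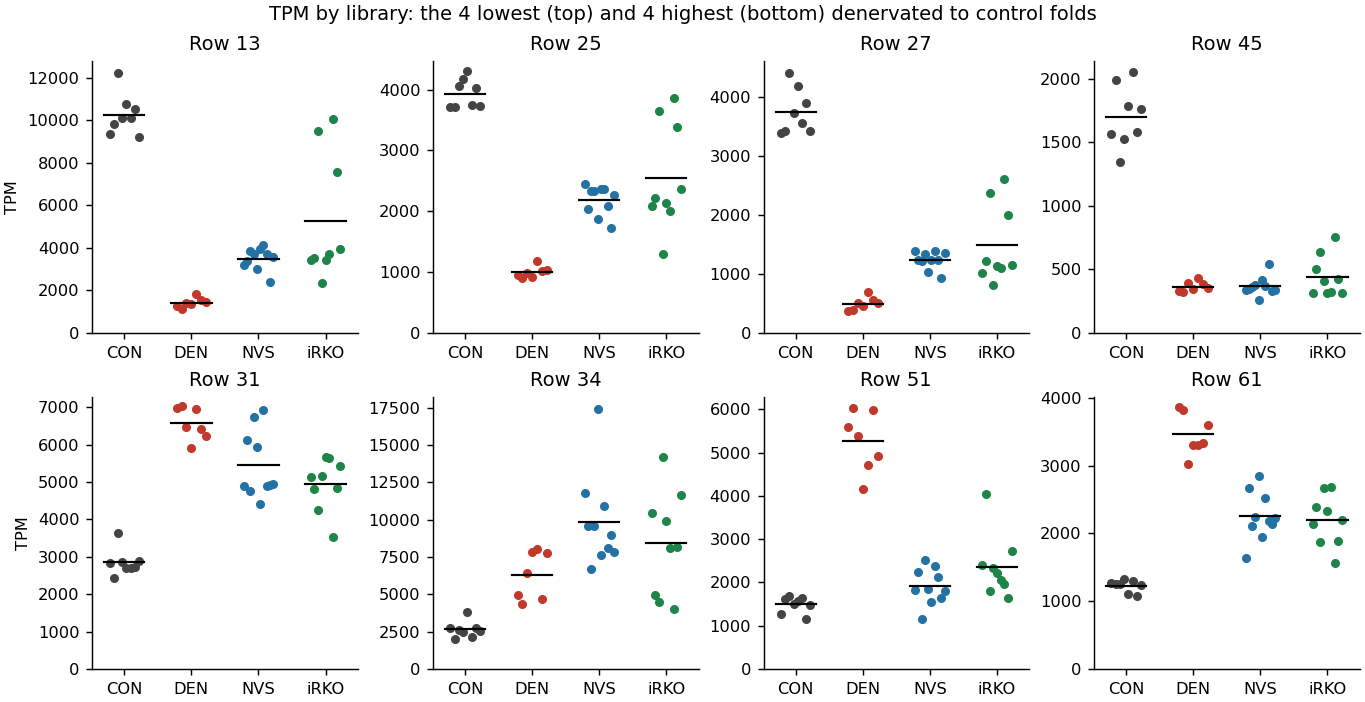
TPM by library (linear axes from 0) in the 4 groups, with the group mean as a line, for the 4 members with the lowest (rows 13, 25, 27, 45) and the 4 with the highest (rows 31, 34, 51, 61) fold of WT_VEH_DEN to control. Row 45 has means of 365, 368 and 443 TPM in the denervated groups, and row 51 is at 5258 TPM in WT_VEH_DEN against 1910 and 2359 TPM in the intervention groups.

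Against WT_VEH_DEN, 45 of 81 members (55.6%) were higher in WT_NVS_DEN and 8 (9.88%) were lower, with 28 not passing the test. Of the 13108 rows tested, 18.5% were called higher and 21.2% lower. The members' median fold was 0.22, against 0.03 over all rows tested. In iRKO_VEH_DEN, 40 members (49.4%) were higher and 11 (13.6%) lower than in WT_VEH_DEN, with 30 not passing, where 15.3% and 25.9% of all rows tested were called. The members' median fold was again 0.22, against -0.03 over all rows. Of the members called with the deletion 78.4% were higher. That was 79.2% with median-of-ratios scaling (19.5% of all rows called higher and 23% lower) and 79.7% with quantile normalization (18.9% and 20.8%). With each library rescaled to the rows that are no members it was 91.0%, where 34.4% of all rows tested were called higher and 13.6% lower. That rescaling depends on the member share itself, and it put the median fold of all rows tested at 0.15. Called changes of 2-fold or more were few: 5 members higher and 1 lower with NVS-HD1 (1.61% and 1.65% of all rows tested), and 7 higher and 1 lower with the deletion (1.85% and 2.37%). For 19 members every WT_NVS_DEN library was above every WT_VEH_DEN library and for 3 every one was below (4.74% and 7.05% of rows tested), and for iRKO_VEH_DEN these counts were 14 and 5 (4.06% and 8.4%). The 2 comparisons use the same WT_VEH_DEN libraries.

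These counts depended on the title number. Only 1 WT_NVS_DEN library and no iRKO_VEH_DEN library shares a number with WT_VEH_DEN, so number and group can hardly be told apart. With the number as a term, 7 members were called higher and 0 lower with NVS-HD1 (1.44% and 2.45% of all rows tested), and 1 higher and 0 lower with the deletion (0.542% and 0.687%), so calls were fewer over all rows as well as among members. Under that model the median folds were 0.25 and 0.26, and the median standard errors were 0.179 and 0.205 in place of 0.0823 and 0.0841. At an unadjusted p under 0.05 in limma, 36 members and 2778 of all 13108 rows passed with NVS-HD1 under that model, in place of 55 and 6232, and 30 members and 2869 rows passed with the deletion, in place of 58 and 6297. Without iRKO_VEH_DEN replicates 3, 7 and 8 the counts of the deletion were 38 higher and 10 lower (16.2% and 19.1% of all rows tested). Without WT_VEH_DEN replicate 5 they were 46 and 11 (13.9% and 27.5%). Fitted with only the 2 groups compared, the deletion had 35 higher and 10 lower (14.4% and 24.1%), and NVS-HD1 had 44 and 9 (19.3% and 21.8%). In that fit the deletion's median standard error was 0.0962 in place of 0.0841. Its smallest limma adjusted p among members was 6.37e-06 in place of 2.69e-10.

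**Figure D5:**
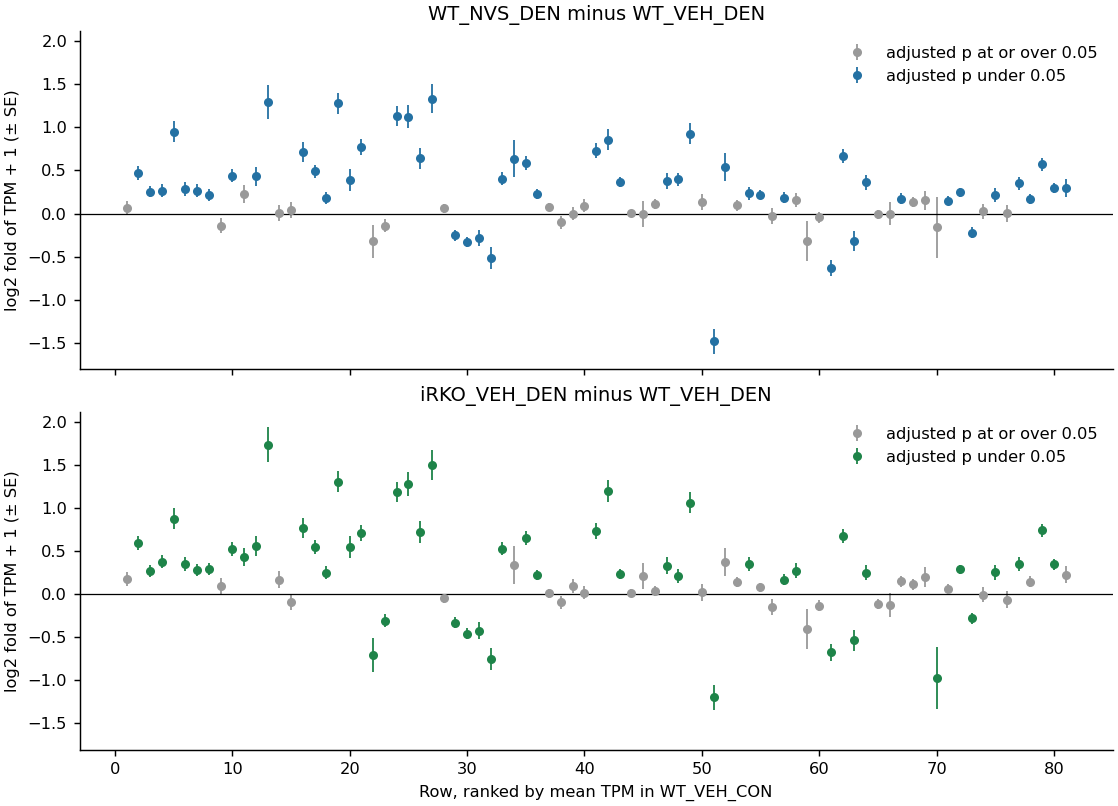
Log2 fold of TPM + 1 against WT_VEH_DEN (n = 7) for the 81 rows in order of control abundance, WT_NVS_DEN (n = 10) above and iRKO_VEH_DEN (n = 9) below, with SE bars and colour for limma adjusted p under 0.05. Most coloured points lie above 0 (45 against 8 with NVS-HD1, 40 against 11 with the deletion), and row 51 is the lowest point with a fold of -1.48 and -1.19.

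Set against the control libraries, the group mean of 20 members lay within the control range in WT_VEH_DEN, of 24 in WT_NVS_DEN and of 25 in iRKO_VEH_DEN. It lay below that range for 49, 41 and 42 members and above it for 12, 16 and 14. Such counts over all rows tested are not given, so these describe the members only and nothing is read from them. Every WT_NVS_DEN library was below every control library for 24 members and above for 9 (2.7% and 15.2% of rows tested). For iRKO_VEH_DEN these counts were 14 and 5 (2.27% and 8.15%). Both contrasts use the control libraries that chose the members and are descriptions only.

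No member passed the test between WT_NVS_DEN and iRKO_VEH_DEN in limma, where 0.061% of all rows tested were called higher and 0.0153% lower. At an unadjusted p under 0.05, 15 members (18.5%) and 1100 of all rows tested (8.39%) passed, and the smallest adjusted p among members was 0.281 (row 55, line 6304). For 77 members the 95% interval of this contrast stayed inside 1.5-fold in both directions, as it did for 90.2% of all rows tested, and for 80 members it stayed inside 2-fold. Folds ran from -0.44 to 0.81. The highest belonged to row 70 (line 2633), with 699, 1567 and 2338 TPM in WT_NVS_DEN and 162, 1225 and 1919 TPM in iRKO_VEH_DEN (95% interval 0.14 to 1.48, limma adjusted p = 0.477). The lowest belonged to row 13 (-0.44, 95% interval -0.81 to -0.06, limma adjusted p = 0.50). The mean member share differed by -1.79 points (SE 1.46) between the 2 groups. It was 1.5 points within title number 26 (2 libraries each), -3.31 within number 27 (7 against 2), and 0.827 without iRKO_VEH_DEN replicates 3, 7 and 8.

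The members varied little within the control group. The median coefficient of variation of the 81 rows was 9.16% in control, 10.3% in WT_VEH_DEN, 9.27% in WT_NVS_DEN and 13.6% in iRKO_VEH_DEN, close to the 10.3%, 10.8%, 10.8% and 13.3% of the 1110 rows of 100 to 1000 TPM. Rows 55, 24 and 17 were the steadiest in control, at 4.2%, 4.38% and 4.82%. Row 17 (line 17555) held 6285, 6818 and 7383 TPM in control and 2648, 2884 and 3430 TPM in WT_VEH_DEN, and was higher by 0.49 with NVS-HD1 and 0.55 with the deletion (limma adjusted p = 3.37e-06 and 6.9e-07). Row 55 held 1276, 1354 and 1437 TPM in control, with no denervated library of any group reaching that range. It was higher by 0.22 with NVS-HD1 than in WT_VEH_DEN (limma adjusted p = 0.000344), and its deletion fold of 0.08 did not pass (limma adjusted p = 0.203).

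Rows 59, 34 and 66 varied most in control, at 38.6%, 20.3% and 19.8%. Row 59 (line 23513) ranged from 676 to 2143 TPM in control and from 720 to 2586 TPM in WT_VEH_DEN, and no intervention difference passed. In row 66 (line 18738), WT_VEH_CON replicate 3 was at 622 TPM where the other 7 control libraries had 1105 to 1320 TPM. Among the libraries of its own group, WT_VEH_CON replicate 3 was highest for 40 of 81 members and lowest for 15. WT_VEH_DEN replicate 5 was highest in its group for 46 members and lowest for 8. In iRKO_VEH_DEN, 20 members had a coefficient of variation over 20%, and the group's median was 9.56% without replicates 3, 7 and 8. Without those 3 libraries 36 of the 40 members called higher with the deletion and 9 of the 11 called lower were still called. Over all rows tested, 16.2% were called higher and 19.1% lower without them, against 15.3% and 25.9% with all libraries. How many of these were the same rows is not given. Among the rows described singly, 2 calls ended without those 3 libraries. Row 22 (line 6193), with 4554, 5329 and 5776 TPM in WT_VEH_DEN and 1568, 3502 and 7803 TPM in iRKO_VEH_DEN, was lower, at -0.71 (limma adjusted p = 0.00407) with them and had -0.31 without them. Row 70 was lower, at -0.97 (limma adjusted p = 0.0305) with them and had -0.16 without them.

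The set over 1000 TPM was not the same rows in each group. By group mean, 101 rows reached 1000 TPM in WT_VEH_DEN, of which 55 were members and 46 were not. In WT_NVS_DEN 83 rows did, 65 of them members, and in iRKO_VEH_DEN 82 rows, 64 of them members. The 46 others of WT_VEH_DEN held 8.03% of its TPM and had control means from 22.8 to 980 TPM, with a median of 582 TPM. The highest was on line 14045, with means of 803 ± 80.5 TPM in control (SD, n = 8), 5788 ± 940 in WT_VEH_DEN (n = 7), 927 ± 179 in WT_NVS_DEN (n = 10) and 924 ± 438 in iRKO_VEH_DEN (n = 9). A row on line 8154 went from 307 TPM in control to 3449 TPM in WT_VEH_DEN, and had 1041 and 817 TPM in the intervention groups. Rows on lines 393, 17547 and 19663 had control means of 951, 736 and 764 TPM, WT_VEH_DEN means of 4270, 3094 and 2934 TPM, WT_NVS_DEN means of 2424, 2480 and 1888 TPM and iRKO_VEH_DEN means of 2246, 2168 and 1638 TPM. In all, 47 of the 81 members were at or above 1000 TPM in each of the 34 libraries.

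At the threshold itself, rows 79, 80 and 81 (lines 1756, 12966 and 17324) had control means of 1020, 1019 and 1017 TPM, and the next 3 rows, on lines 8514, 12598 and 2157, had 999.5, 994 and 993 TPM. In WT_VEH_DEN the first 3 had means of 490, 695 and 659 TPM and the next 3 had 980, 688 and 782 TPM. Rows 79 and 80 were higher in both interventions (0.57 and 0.30 with NVS-HD1, limma adjusted p = 1.2e-07 and 0.000236, and 0.74 and 0.35 with the deletion, limma adjusted p = 8.76e-10 and 3.23e-05). Row 81 was higher with NVS-HD1 (0.30, limma adjusted p = 0.0185), while its deletion fold of 0.23 did not pass (limma adjusted p = 0.0765).

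Over the 34 libraries, row 2 was most like rows 79, 10 and 42 (Pearson r of log2 values 0.97, 0.96 and 0.96), row 3 most like rows 8, 2 and 33 (0.92, 0.90 and 0.89), and row 1 most like rows 58, 6 and 8 (0.60, 0.57 and 0.43). All rows share the same libraries, groups and fixed total, so these values are descriptions. The median r was 0.76 over the 45 pairs of rows 1 to 10 and 0.26 over the 3240 pairs of all members. With each group's mean removed the medians were 0.59 and 0.10. The members were spread over the table from line 125 to line 23513, with a median gap of 150 lines. Rows 70, 52 and 5 stood on 3 consecutive lines (2633 to 2635), and 9 members had another member within 10 lines.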

How the data were processed

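The authors deposited 1 table of TPM values for 34 libraries, 1 column per library, with each column adding up to 1000000. Per the labels' protocols, the libraries were made from polyadenylated RNA and keep strand. STAR 2.4.5a and the mm10 build are named in the submitters' processing notes. The counting tool, its annotation and its filters were not given in the sources used here.

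Groups came from the labels, and replicates were numbered in accession order and never paired. The members and lists were chosen with earlier results of these data known. A row was tested if 7 or more libraries had 1 TPM or more (13108 rows, with all 81 members among them). Values were analysed as log2(TPM + 1), which makes folds of low values too small. A single model over the 4 groups was fitted with limma 3.58.1 (R 4.3.3) with a mean-variance trend. The comparisons of WT_NVS_DEN and iRKO_VEH_DEN with WT_VEH_DEN and with each other were tested (two-sided, threshold 0.05 after Benjamini-Hochberg adjustment over all rows tested). Comparisons with WT_VEH_CON carry no p, because its values chose the members. Called, higher and lower without further words refer to these tests.

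Rows described singly were rows 1 to 10, the 4 lowest and 4 highest folds of WT_VEH_DEN to control, the 4 largest called rises and falls of each intervention, the 3 rows on either side of the threshold, the 3 least and 3 most variable members in control, and the 3 highest rows of each denervated group that are no members. Shares and figures were made with Python 3.11.15, numpy 2.4.6, pandas 2.3.3 and matplotlib 3.10.9. Alternatives were the TPM threshold, the pseudocount (0.1 and 5), no filter, 3 other scalings, the title number as a term, fits of only the 2 groups compared, and leaving out libraries that stood apart. Leaving out WT_VEH_DEN replicate 5 throughout, and WT_VEH_CON replicate 3 from the tested comparisons and the folds of single rows, was chosen after seeing the data.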

Additional observations from a re-analysis of the deposited data

Results flagged for a closer look

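In 19 of the 128 sets of values checked (the member share and the rows named, in each of the 4 groups), the highest or lowest library stood far from the rest of its group. Chance would give about 1 in 20, or 6.4, for independent sets that were not chosen by their values. These sets share libraries and are not independent, and several rows were named for their spread or folds in these same values. The 19 is therefore not read against 6.4. Of the 19, 8 belong to WT_VEH_CON replicate 3. That library had a member share of 56.8% (the others 48.5% to 51.6%). It also stood above its group in row 2 (46692 TPM, the others 35889 to 39799), row 3 (43956 TPM, the others 33487 to 36826), row 5 (33151 TPM, the others up to 28764), row 7 (30905 TPM, the others up to 26910), row 19 (6602 TPM, the others up to 5353) and row 31 (3629 TPM, the others up to 2900). In row 66 it stood below, at 622 TPM (the others from 1105).

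In the other control libraries, row 34 was 3816 TPM in replicate 5 (the others up to 2756). In WT_VEH_DEN, replicate 5 had a member share of 44.3% (the others up to 39.1%), and row 30 was 5682 TPM in replicate 1 (the others up to 5039). In WT_NVS_DEN, replicate 5 had 17429 TPM in row 34 (the others up to 11786) and 1124 TPM in row 81 (the others up to 892), and replicate 7 had 714 TPM in row 80 (the others from 832). In iRKO_VEH_DEN, replicate 4 had 4020 TPM in row 19 (the others from 5325) and 7803 TPM in row 22 (the others up to 3973). Replicate 2 of that group had 4053 TPM in row 51 (the others up to 2737) and 728 TPM in row 80 (the others from 867), and replicate 3 had 1116 TPM in row 55 (the others up to 1026).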

How the results depend on the processing

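The differences in share from WT_VEH_CON to WT_VEH_DEN and from WT_VEH_DEN to each intervention kept their direction under the alternatives run, and most counts stayed within 1.5 times, with these exceptions. A threshold of 500 TPM gave 211 rows and one of 2000 TPM gave 38. The share difference of WT_NVS_DEN to iRKO_VEH_DEN (-1.79 points) was 1.5 points within title number 26, -3.31 within number 27 and 0.827 without iRKO_VEH_DEN replicates 3, 7 and 8. Members above control without overlap under denervation numbered 6 with median-of-ratios scaling and 6 with libraries rescaled to the rows that are no members. With NVS-HD1, members called higher were 29 with median-of-ratios scaling, where 18.9% of all rows tested were called higher, and 7 once the title number entered the model. Members called lower were 4 with rescaling and 0 with the title number. With the deletion, members called higher were 61 with rescaling and 1 with the title number, and members called lower were 6 and 0. Over all rows tested, rescaling called 36.8% higher and 12.3% lower with NVS-HD1, and 34.4% and 13.6% with the deletion, and the title number called 2.45% or fewer in each direction. The title number also turned the direction of row 31, to 0.0934 with NVS-HD1 and 0.074 with the deletion. The cause was not tested. Few libraries of the groups compared share a title number, and the standard errors were larger in that model. Lower precision and a difference between title numbers cannot be told apart here. Of 404 values of single rows under alternatives, 301 kept their call or stayed within the replicate spread, 51 no longer passed the test (39 of them with the title number), 3 passed anew, 47 moved by more than the spread and 2 turned direction.

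No paired analysis was possible because no label says which legs belong to 1 mouse and the replicate numbers were given in accession order. TPM keep no depth, so the precision of each value is known only from the spread between libraries.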
